A study of Mus musculus with 8 samples.

Results

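The genes described here are the 3 enzymes that take triglyceride apart in sequence, Pnpla2, Lipe and Mgll, with the proteins that set the activity of the first of them, Abhd5, G0s2, Hilpda and Pnpla3. They were chosen by gene name from a table of 45706 genes, and all 7 names were found, each in a single row. The series compares the liver of 4 WT mice with that of 4 PLIN5 S155A mice, called SA/SA in the study, with 1 library per mouse. All 8 mice were C57BL/6J females, 4 months old, on regular chow until they were fasted overnight before harvest. The S155A mice carried a whole-body knock-in, made by CRISPR-Cas9, in which the codon for the PLIN5 serine was changed to one for alanine at the endogenous locus, so that no transgene promoter was involved. Fed mice were not analysed here, and the values therefore describe the fasted state alone.

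Hepatocytes keep triglyceride in lipid droplets. Adipose triglyceride lipase (ATGL, encoded by Pnpla2) removes the first fatty acid, hormone-sensitive lipase (HSL, encoded by Lipe) acts on the diacylglycerol that is left, and monoacylglycerol lipase (encoded by Mgll) frees the last fatty acid from glycerol. ABHD5, also known as CGI-58, is the coactivator of ATGL, while the small proteins G0S2 and HILPDA inhibit it, and PNPLA3 is a droplet protein related to ATGL that can bind ABHD5. PLIN5 on the droplet surface binds both ATGL and ABHD5, and protein kinase A (PKA) phosphorylates PLIN5 at the serine that was replaced. The comparison therefore asked whether transcripts of the lipolysis machinery differed in the fasted liver when this site was lost.

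The total estimated count was between 39709830 and 54540612 per library, and the 10 hepatocyte markers listed for the tissue were all detected in every mouse, summing to between 96600 and 136000 CPM. CPM is the count of a gene when the library, after TMM normalization, is scaled to 1000000 counts. The 10 listed adipocyte genes summed to 473 to 1180 CPM in WT and 500 to 982 CPM in S155A mice, of which Car3, also transcribed in liver, made up 333 to 1110 CPM. Of the other listed genes, Lep had 0 counts in every library, Retn at most 1, Plin1 at most 9, Cfd at most 17 and Adipoq at most 19. Fabp4 was at 2.54 to 6.05 CPM and Adrb3 at 1.56 to 6.86 CPM. Cidec was higher, at 43.4 to 118 CPM in WT and 36.2 to 131 CPM in S155A mice. Pparg was at 13.9 to 19.7 CPM in WT and 13.3 to 16.5 CPM in S155A mice. WT replicate 2 carried pancreatic acinar transcripts, whose 12 listed genes summed to 47.6 CPM against 4.33 to 6.58 CPM in the other mice. In those mice most of the sum was Cela1, at 3.86 to 6.12 CPM. Amy2a5 was at 0 CPM in WT replicate 2, while every other listed acinar gene was highest there. In S155A replicate 3 the 13 listed lymphocyte genes summed to 2070 CPM, whereas the other 7 mice lay between 20.9 and 49.6 CPM. Most of that sum came from the immunoglobulin genes Ighm (1160 CPM) and Igkc (806 CPM), with Jchain at 73.8 CPM. The T cell gene Cd8a was at 0.634 CPM in this mouse and at 0.982 CPM in S155A replicate 1. All 13 lymphocyte genes had a log2 fold change above 0 (median 0.96), with 4 at an unadjusted and 0 at an adjusted p under 0.05. Without S155A replicate 3 it was 11 of 13 (median 0.16), with 1 at an unadjusted p under 0.05. All 10 Kupffer cell and macrophage genes were above 0 (median 0.23, 0 at an unadjusted p under 0.05), and 9 of 10 without that mouse (median 0.20, 1 at an unadjusted p under 0.05). They summed to 263 to 522 CPM in WT and 269 to 586 CPM in S155A mice. The part of these cells in the results was not tested. By the animal numbers on the labels, replicates 1 and 4 of both genotypes fall into a low series, under 200, and replicates 2 and 3 into a high one, over 800. What the numbers stand for is not stated. Untested differences within each series are set beside the pooled value of each of the 7 genes. In whole liver, fewer cells of a type and less RNA per cell cannot be told apart.

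Plin5, the edited gene, was at 254, 194, 183 and 194 CPM in WT replicates 1 to 4 and at 457, 276, 192 and 386 CPM in S155A replicates 1 to 4. The mice of both genotypes overlapped (exact permutation p = 0.114, two-sided like all permutation tests here). By edgeR the log2 fold change was 0.67 (standard error 0.24, edgeR unadjusted p = 0.0193, adjusted p = 0.993). Its 95% interval, not adjusted for the number of genes, ran from 1.1-fold to 2.31-fold. The difference in mean log2 CPM was 0.92 among low and 0.29 among high animal numbers. A gene count does not show which codon was transcribed.

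In the RNA sequencing counts, no difference between S155A and WT liver passed a test for any of the 7 genes. By edgeR's quasi-likelihood test with Benjamini-Hochberg adjustment over 14629 genes, 0 of 7 passed an adjusted p of 0.05, where 0.0% of all genes tested passed. At an unadjusted p under 0.05 the count was also 0 of 7, against 3.40% of all genes (1.42% higher and 1.98% lower in S155A mice, 497 genes together). DESeq2 and limma-voom likewise called 0 of the 7, at an adjusted as well as an unadjusted p. Elsewhere in the table DESeq2 called 6 genes (0.0411%) at an adjusted p of 0.05, with 4.07% of genes at an unadjusted p under 0.05, and limma-voom called 0, with 466 genes at an unadjusted p under 0.05. For no gene of the 7 did the 4 WT mice separate from the 4 S155A mice, which happened for 2.30% of all genes tested. Of the 7 genes, 5 had a higher and 2 a lower fitted mean in S155A mice, where 48.8% of all genes were higher. Of the 7, 6 were within 0.5 of 0 on the log2 scale, as were 90.4% of all genes, and their median log2 fold change was 0.11, with -0.0050 over all genes tested. The study also measured some of these genes by quantitative PCR in fed and fasted females. By post hoc tests without correction, it reported that Pnpla2 differed between WT and SA/SA liver. Its text does not state the direction for this gene. Lipe and G0s2 rose alike with fasting in both genotypes there, and did not differ by genotype in fasted young or old males. The study described a subtle drop in part of its lipid metabolism genes in fasted females, with a genotype effect negligible beside that of fasting.

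**Figure D1:**
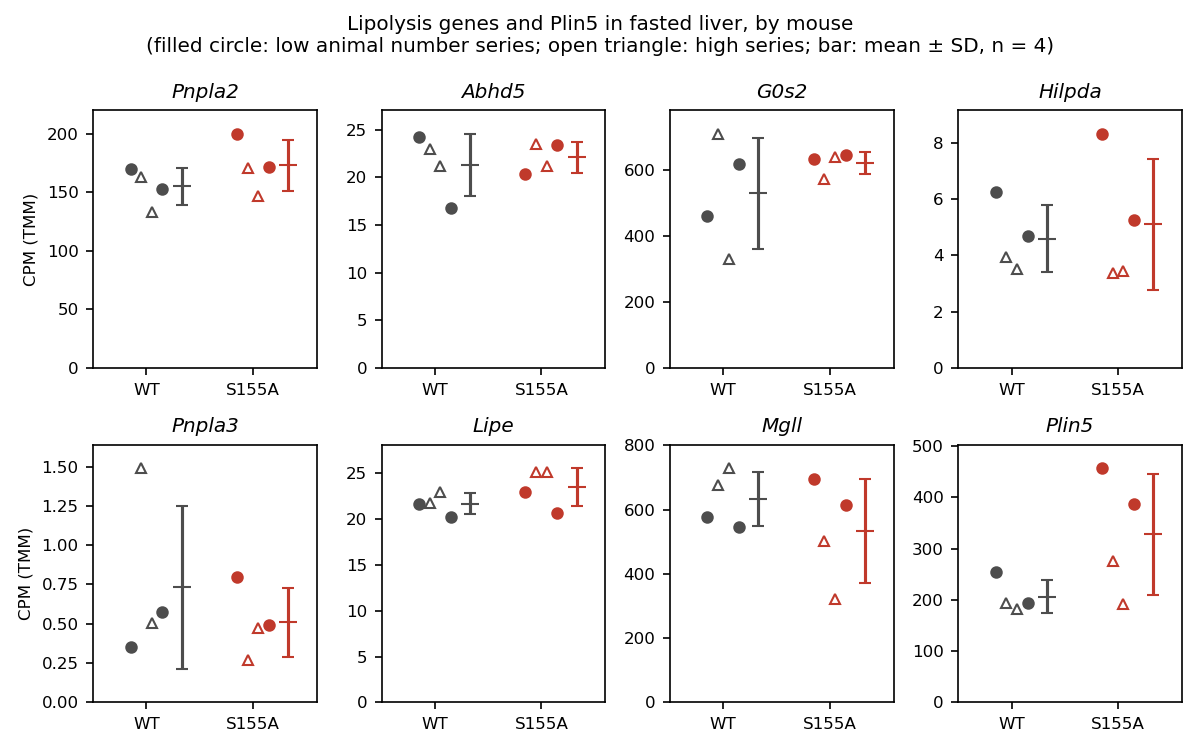
Expression of the 7 lipolysis genes and of Plin5 in each mouse, in CPM on axes that start at 0, with WT in grey and S155A in red. Filled circles are mice of the low and open triangles mice of the high animal number series, and the bars give mean ± SD (n = 4). The points of both genotypes overlap in all 8 panels, Mgll is lowest in S155A replicate 3 at 323 CPM, and Pnpla3 is highest in WT replicate 2 at 1.49 CPM.

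Pnpla2 (ENSMUSG00000025509) is found on the forward strand of chromosome 7, between 141455198 and 141460743 of GRCm38, and no other gene overlaps it in GENCODE release M21. It was at 170, 163, 133 and 153 CPM in WT replicates 1 to 4 and at 200, 171, 147 and 172 CPM in S155A replicates 1 to 4. S155A replicates 1, 4 and 2 were the 3 highest mice, the last of these barely above WT replicate 1, and S155A replicate 3 was below all WT mice but the lowest. The SD between mice was 15.9 CPM in WT and 21.5 CPM in S155A liver (n = 4). The log2 fold change of Pnpla2 was 0.16 (standard error 0.12, edgeR adjusted p = 0.993, exact permutation p = 0.229). The 95% interval of the difference ran from 0.926-fold to 1.35-fold. In mean log2 CPM, S155A minus WT was 0.20 among mice with low animal numbers and 0.11 among those with high ones. Without S155A replicate 1 the log2 fold change was 0.081.

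Abhd5 (ENSMUSG00000032540), the ATGL coactivator, lies on chromosome 9 from 122351608 to 122381524 on the forward strand and is overlapped on the opposite strand by A730085K08Rik. Its transcript was at 24.2, 23.0, 21.2 and 16.8 CPM in WT and at 20.3, 23.5, 21.2 and 23.4 CPM in S155A replicates 1 to 4. The lowest and the highest mouse were both WT, so that the S155A values lay inside the WT range. The log2 fold change was 0.051 (standard error 0.13, edgeR adjusted p = 0.996, exact permutation p = 0.771), with an interval from 0.851-fold to 1.26-fold. By animal number it was 0.11 (low) and 0.015 (high). Without WT replicate 4, the lowest mouse, the log2 fold change was -0.047. Abhd5 transcripts stood to Pnpla2 transcripts, as a ratio of CPM within a library, at 0.110 to 0.160 in WT and 0.102 to 0.144 in S155A mice. The ratio of coactivator to lipase transcripts thus overlapped between the genotypes.

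G0s2 (ENSMUSG00000009633), which encodes the G0/G1 switch inhibitor of ATGL, lies on chromosome 1 from 193272161 to 193273217 on the reverse strand and overlaps Lamb3 on the opposite strand. In WT replicates 1 to 4 it was at 460.0, 711, 331 and 619 CPM, and in S155A replicates 1 to 4 at 634, 573, 640.0 and 646 CPM. WT mice spread widely and enclosed all S155A mice, which lay close together. The coefficient of variation was 31.8% in WT and 5.42% in S155A mice (n = 4 each), a difference in spread that was not tested. The means were 530.0 ± 169 CPM and 623 ± 33.7 CPM (SD, n = 4). For G0s2 the log2 fold change was 0.23 (standard error 0.21, edgeR adjusted p = 0.993, exact permutation p = 0.343), with an interval from 0.856-fold to 1.61-fold. It was 0.063 without WT replicate 3 and 0.41 without WT replicate 2, the lowest and the highest mouse. Low and high animal numbers gave 0.26 and 0.32. The CPM ratio of G0s2 to Pnpla2, which depends on the length of both transcripts and is compared only between mice, was 2.49 to 4.37 in WT and 3.18 to 4.35 in S155A mice and overlapped.

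Hilpda (ENSMUSG00000043421), the hypoxia-inducible lipid droplet-associated inhibitor of ATGL, lies on chromosome 6 from 29272488 to 29275446 on the forward strand with no overlapping gene. It was at 6.25, 3.93, 3.52 and 4.70 CPM in WT and at 8.32, 3.39, 3.43 and 5.26 CPM in S155A replicates 1 to 4, resting on 130 to 449 counts per mouse. Hilpda separated by animal number series and overlapped by genotype. All 4 mice of the low series, from 4.70 to 8.32 CPM, were above all 4 of the high series, from 3.39 to 3.93 CPM. Such a separation of the series was seen for 1 of the 7 genes and for 6.85% of all genes tested (3.32% with the low series higher), and it was looked for after the values were seen. The mean log2 CPM was lower by 0.74 in the high series (difference -0.74). Between genotypes the log2 fold change of Hilpda was 0.15 (standard error 0.31, edgeR adjusted p = 0.996, exact permutation p = 0.914), with differences of 0.29 in the low and -0.12 in the high series. Without S155A replicate 1 it was -0.19. Among the members, Hilpda had one of the wider intervals, from 0.688-fold to 1.80-fold.

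Pnpla3 (ENSMUSG00000041653) lies on chromosome 15 from 84167837 to 84187236 on the forward strand, where Mir6392 and Gm49513 on the same strand and Gm20369 on the other overlap it. Feeding and insulin raise this gene in liver. Its transcript was scarce in these fasted mice, and without fed mice the part of fasting in this was not tested. WT replicates 1 to 4 were at 0.354, 1.49, 0.505 and 0.572 CPM and S155A replicates 1 to 4 at 0.797, 0.269, 0.475 and 0.494 CPM. These values rest on 13 to 75 counts per mouse, and the 75 belong to WT replicate 2. Counting error alone (exact Poisson 95% intervals) put WT replicate 2 between 1.18 and 1.87 CPM and S155A replicate 2 between 0.143 and 0.460 CPM. WT replicate 2 was therefore above every other mouse by more than counting error, while the 3 other WT mice lay within the S155A range. The log2 fold change was -0.52 (standard error 0.51, edgeR adjusted p = 0.993, exact permutation p = 0.543), and without WT replicate 2 it was 0.098. Low and high animal numbers gave differences of 0.44 and -1.2. WT replicate 2 is also the library with acinar transcripts, whose part in its Pnpla3 value was not tested. The interval for Pnpla3, from 0.317-fold to 1.54-fold, was the widest of the 7.

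The stretch of chromosome 15 before the start of Pnpla3 is shown because it holds a full cyclic AMP response element, the DNA letters bound by the PKA-activated factor CREB, and PKA is the kinase of the mutated site. The 250 bases are from chr15:84167566-84167815 on the forward strand (RefSeq, GRCm38.p6), with TGACGTCA in capitals, 46 bases before the start.
Pnpla3: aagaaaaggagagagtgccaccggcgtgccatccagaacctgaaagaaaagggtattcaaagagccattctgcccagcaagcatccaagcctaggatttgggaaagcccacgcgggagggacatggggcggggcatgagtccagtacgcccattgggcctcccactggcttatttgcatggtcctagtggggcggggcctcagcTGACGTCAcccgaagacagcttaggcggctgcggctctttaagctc
This motif reads the same on both strands and occurs in 1.55% of 32851 RefSeq promoter windows of this length. A match is a description of letters and no evidence of binding in these livers. Whether PKA, CREB or the mutated site has a part in the Pnpla3 level was not tested.

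Lipe (ENSMUSG00000003123), the gene of hormone-sensitive lipase, lies on chromosome 7 from 25379527 to 25398710 on the reverse strand, with 4732471J01Rik on the opposite strand. It was at 21.7, 21.8, 23.0 and 20.2 CPM in WT and at 23.0, 25.1, 25.1 and 20.7 CPM in S155A replicates 1 to 4. S155A replicates 2 and 3 were the 2 highest mice and WT replicate 4 was the lowest, with the remaining mice mixed. Lipe varied least of the 7 genes: the within-genotype SD of log2 CPM was 0.11, and 7.37% of all genes tested had a smaller one, while the median gene had 0.27. Even so the genotypes were not separated, with a log2 fold change of 0.11 (standard error 0.10, edgeR adjusted p = 0.993, exact permutation p = 0.171). The interval ran from 0.926-fold to 1.26-fold. Among low animal numbers the difference was 0.062 and among high ones 0.16.

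Mgll (ENSMUSG00000033174), the gene of monoacylglycerol lipase, spans chromosome 6 from 88724412 to 88828360 on the forward strand and overlaps Gm44005, Gm43999 and Gm44001 on its own strand and Gm26588 and Gm43937 on the other. WT replicates 1 to 4 were at 577, 677, 729 and 547 CPM and S155A replicates 1 to 4 at 696, 501, 323 and 615 CPM. S155A replicates 2 and 3 were below every WT mouse, while S155A replicates 1 and 4 lay within the WT range. The means were 633 ± 85.0 CPM in WT and 534 ± 161 CPM in S155A mice (SD, n = 4). For Mgll this gave a log2 fold change of -0.25 (standard error 0.21, edgeR adjusted p = 0.993, exact permutation p = 0.371). The difference had opposite signs by animal number, 0.22 in the low and -0.80 in the high series. Without S155A replicate 3 the log2 fold change of Mgll was -0.065. This mouse is the library with high immunoglobulin transcripts, whose part in its low Mgll value was not tested. The interval for Mgll ran from 0.607-fold to 1.17-fold.

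**Figure D2:**
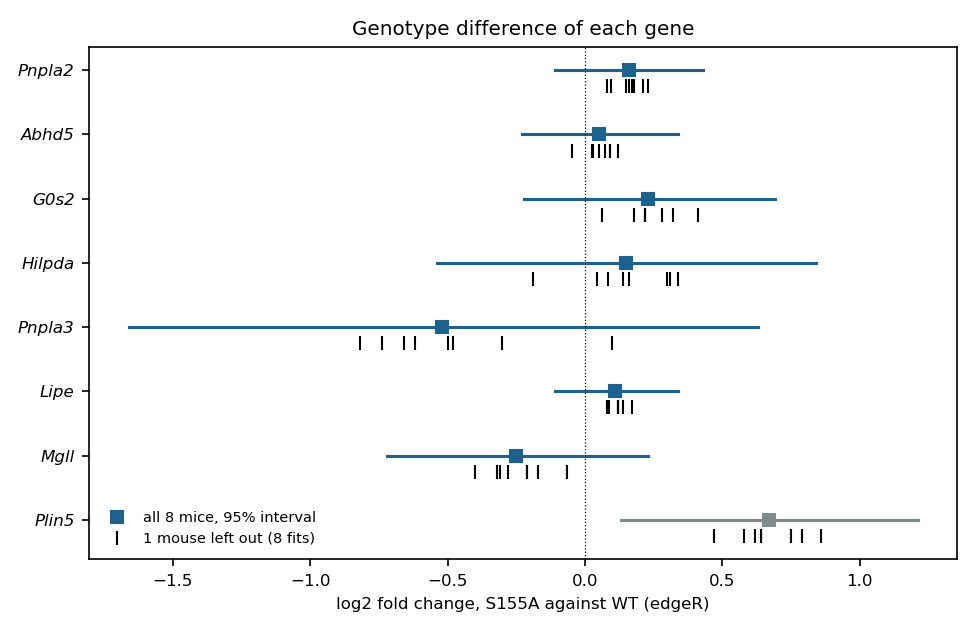
Log2 fold change of each gene between S155A and WT liver from edgeR (squares) with its 95% interval (lines), and the value with 1 mouse left out (8 ticks under each line). The intervals of all 7 lipolysis genes cross 0, and the ticks of Pnpla3, Abhd5 and Hilpda fall on both sides of 0. The interval of Plin5, from 0.13 to 1.21, does not cross 0.

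The size of the differences that these livers allow varied from gene to gene. For Pnpla2, Abhd5 and Lipe the intervals kept within 0.851-fold and 1.35-fold, whereas Hilpda and Pnpla3 could have differed by more than that in either direction. The spread behind these intervals was uneven. Pnpla2 and Abhd5 had within-genotype SDs of 0.17 and 0.18 on the log2 scale, G0s2 and Mgll 0.35 and 0.37, Hilpda 0.50 and Pnpla3 0.72. A p above the threshold does not show that the genotypes were alike.

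Per length of merged exons, the transcripts of the pathway covered more than 3 orders of magnitude. In WT liver G0s2 led with 609 CPM per kb, followed by Mgll with 125 and Pnpla2 with 51.2 CPM per kb. Hilpda (4.17), Lipe (3.68) and Abhd5 (3.58 CPM per kb) lay below these, and Pnpla3 was last with 0.473 CPM per kb. In S155A liver the means were 715 CPM per kb for G0s2, 105 for Mgll, 57.1 for Pnpla2, 4.63 for Hilpda, 3.99 for Lipe, 3.71 for Abhd5 and 0.329 for Pnpla3. Among WT mice G0s2, Mgll and Pnpla2 did not overlap with each other. Among S155A mice Mgll (63.7 to 137 CPM per kb) reached into the range of Pnpla2 (48.6 to 66.1 CPM per kb) through replicate 3. Hilpda (3.19 to 5.66), Lipe (3.42 to 3.91) and Abhd5 (2.82 to 4.07 CPM per kb in WT mice) overlapped, so that these 3 cannot be put in order. The order of their means also turned when the longest annotated transcript took the place of the merged exons, with 6.75 for Abhd5, 5.84 for Lipe and 4.68 CPM per kb for Hilpda in WT liver. Fasted liver thus held far more transcript of the inhibitor G0s2 than of the coactivator Abhd5 per unit of length, in both genotypes. Plin5 itself was at 98.7 CPM per kb in WT and 157 CPM per kb in S155A liver.

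**Figure D3:**
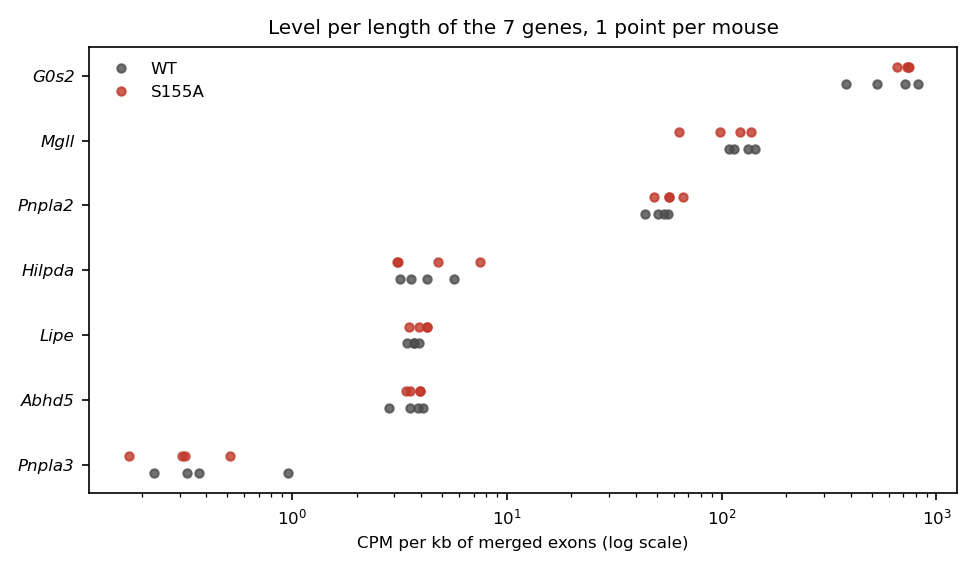
Level of each gene per length, in CPM per kb of merged exons on a log scale, with 1 point per mouse (WT grey, S155A red). G0s2, Mgll and Pnpla2 lie at the top, from 44.0 CPM per kb upwards, Hilpda, Lipe and Abhd5 share a band between 2.82 and 7.55 CPM per kb, and Pnpla3 lies below 1 CPM per kb.

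Pnpla2 followed Plin5 from mouse to mouse. Across the 8 mice the log2 CPM of the lipase and of the perilipin gave Pearson's r = 0.867 (exact permutation p = 0.00166, adjusted p = 0.0465 over 28 pairs) and Spearman's rho = 1.0. The permutation p of rho was 5e-05, the smallest that 8 mice can give (adjusted p = 0.0014). The 28 pairs are those among the 7 genes and Plin5. The rank order of the mice was the same for both genes, though WT replicates 2 and 4 were nearly equal in Plin5. Without S155A replicate 1 and WT replicate 3, the mice farthest from the median of Pnpla2, r was 0.787. With 1 mouse left out, r ran from 0.752 (without S155A replicate 1) to 0.912 (without WT replicate 2). After the mean of each genotype was taken away it was 0.834, and with library size in place of TMM it was 0.899. Of 7432 genes with a mean of at least 10 CPM, 21 genes (0.283%) had an r with Plin5 as high as that of Pnpla2. The means of the animal number series were not taken away, and the part of the series in this correlation was not tested. In mean log2 CPM, high minus low series was -0.18 for Pnpla2 and -0.55 for Plin5, and the series overlapped in both genes. S155A replicates 1 and 4, the mice highest in both genes, belong to the low series. The permutations took all 8 mice as exchangeable across genotype and series.

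**Figure D4:**
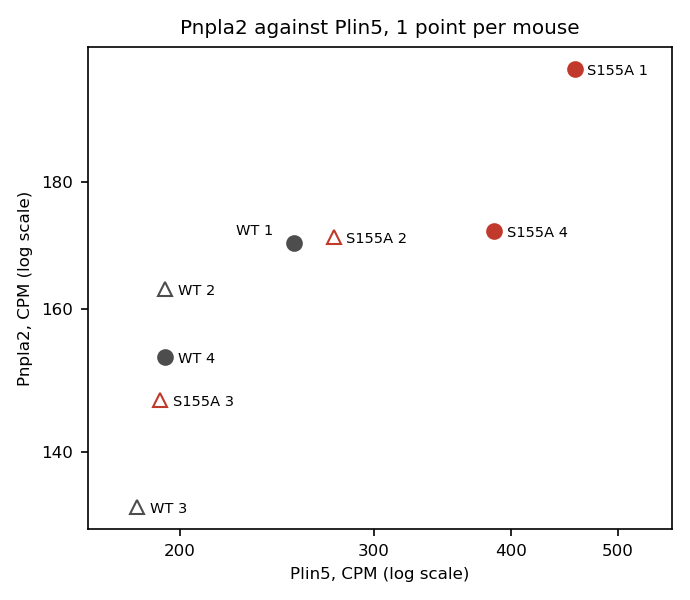
CPM of Pnpla2 against CPM of Plin5, both on log scales, with 1 labelled point per mouse (WT grey, S155A red; filled circles low and open triangles high animal number series). Both genes are lowest in WT replicate 3, at 133 CPM for Pnpla2 and 183 CPM for Plin5, and highest in S155A replicate 1, at 200 and 457 CPM.

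The DNA before the starts of both genes is shown for this pair. The stretches end before the RefSeq start and before the gene model of GENCODE release M21, and capitals mark AGGTCA, the hexamer of which the PPAR response element repeats a pair. For Pnpla2 the 250 bases are from chr7:141454938-141455187 on the forward strand, and for Plin5 the 202 bases are from chr17:56117597-56117798, read on the reverse strand (RefSeq, GRCm38.p6).
Pnpla2: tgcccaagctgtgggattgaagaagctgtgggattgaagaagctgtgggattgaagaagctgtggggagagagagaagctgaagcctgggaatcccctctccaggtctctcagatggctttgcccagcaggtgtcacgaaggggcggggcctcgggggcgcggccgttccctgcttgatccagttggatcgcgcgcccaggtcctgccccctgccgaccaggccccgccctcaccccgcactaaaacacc
Plin5: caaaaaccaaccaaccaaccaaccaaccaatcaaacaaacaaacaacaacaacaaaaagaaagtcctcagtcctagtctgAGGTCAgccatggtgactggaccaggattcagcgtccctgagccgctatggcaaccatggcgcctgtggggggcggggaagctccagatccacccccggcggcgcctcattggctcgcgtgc
Searched on both strands, AGGTCA was found once before Plin5, starting 170 bases before the RefSeq start, and not in this window before Pnpla2. It occurs in 14.0% of the 32851 promoter windows, and the full element, the same hexamer repeated after 1 base and held by 0.0335% of them, was in neither window. The window before another RefSeq start of Plin5, chr17:56117299-56117548, held no AGGTCA. Among the members, Abhd5 had 1 match, starting 69 bases before its start. The search took exact letters alone, so that an element with other letters would be missed. A match or its lack describes letters and not binding, and a part of PPAR in the levels of these genes was not tested.

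Of the other 27 pairs, 0 passed an adjusted p of 0.05, and 2 had an unadjusted exact permutation p under 0.05. Pnpla2 and Hilpda had r = 0.750 (exact permutation p = 0.0302, adjusted p = 0.342, rho = 0.548). It was 0.399 without the 2 mice farthest from the median of Pnpla2, though leaving out the extremes also narrows the range of values. Within genotypes r was 0.805 for this pair. Hilpda and Plin5 had r = 0.737 (exact permutation p = 0.0366, adjusted p = 0.342, rho = 0.548), with 0.530 without the 2 farthest mice and 0.884 within genotypes. Mgll and Plin5 had r = 0.282 (exact permutation p = 0.518, adjusted p = 0.882, rho = 0.0952), with 0.342 without the 2 farthest mice and 0.784 within genotypes. The within-genotype values were not tested. Hilpda separated by animal number series, whose part in its pairs was not tested either. Pnpla2 and its inhibitor G0s2 had r = 0.528 (exact permutation p = 0.199, adjusted p = 0.882, rho = 0.286) and -0.353 without the 2 farthest mice. Pnpla2 and its coactivator Abhd5 had r = 0.219 (exact permutation p = 0.580, adjusted p = 0.882, rho = 0.262) and 0.695 without the 2 farthest mice. The lipases Lipe and Mgll had r = -0.488 (exact permutation p = 0.225, adjusted p = 0.882, rho = -0.190) and 0.859 without S155A replicates 2 and 3. The sign of r for Pnpla2 with G0s2 and for Lipe with Mgll thus hung on a pair of mice. This was not particular to them, since several other pairs changed sign too. Abhd5 with Lipe went from 0.307 to -0.267, and G0s2 with Mgll from -0.301 to 0.314.

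Outside the group, the genes whose pattern over the 8 mice was most like that of each member were found among 7433 genes with at least 10 CPM, by the highest Pearson's r of log2 CPM. They were Wbscr16 and Bysl for Pnpla2 (r = 0.945 and 0.933), Cgrrf1 and Rnf44 for Pnpla3 (0.923 and 0.917) and Rbm18 and Nmnat1 for Abhd5 (0.958 and 0.947). Suco was among them for G0s2 (0.921), and Nfrkb and Sf3a1 for Hilpda (0.978 and 0.971). For Lipe they were Rangap1 and Wdr1 (0.965 and 0.952), and for Mgll Tnk2 and Setd1a (0.973 and 0.963). The values are the highest of all genes searched over 8 libraries and are given as a description.

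**Figure D5:**
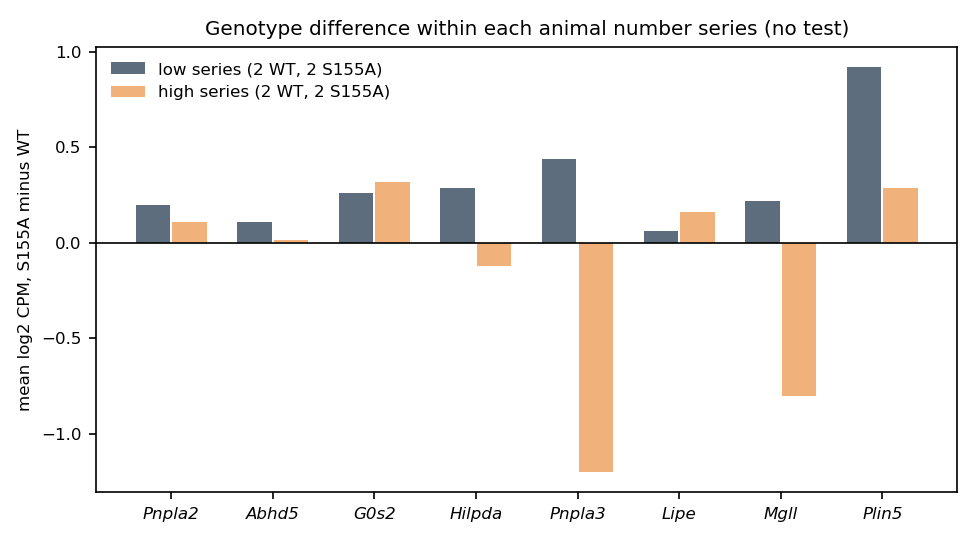
Difference in mean log2 CPM between S155A and WT mice within the low and the high animal number series (2 against 2 mice in each, no test). Pnpla2, Abhd5, G0s2, Lipe and Plin5 have bars above 0 in both series, while Hilpda, Pnpla3 and Mgll point up in the low series and down in the high series, by -0.12, -1.2 and -0.80.

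The rest of the pathway was read from 4 lists with 61 genes, of which 60 were found by symbol and 56 were tested. By edgeR 0 of 56 passed an adjusted p of 0.05, and 1 gene, Plin5, had an unadjusted p under 0.05. DESeq2 and limma-voom called 0 of the 56 as well. The median log2 fold change of the 56 was -0.036, with 22 genes above and 34 below 0, where 48.8% of all genes tested were above 0.

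Among other neutral lipid hydrolases, 23 of 25 genes were tested and 0 passed, with 6 above and 17 below 0 and a median of -0.073. Of all genes tested, 48.8% were above 0, and the lean of this list was not tested. Lpl, which encodes lipoprotein lipase, had the highest log2 fold change at 0.33 (standard error 0.32), with -0.57 among low and 1.1 among high animal numbers. It was 0.11 without S155A replicate 2 and 0.57 without WT replicate 4. Ces3a, a carboxylesterase of the endoplasmic reticulum, had the lowest at -0.30 (standard error 0.22), with 0.15 in the low and -0.74 in the high series, and was -0.092 without WT replicate 3 and -0.49 without S155A replicate 4. Lysosomal acid lipase (Lipa) was at 209 to 297 CPM in WT and 142 to 270.0 CPM in S155A mice. Abhd6, which also hydrolyses monoacylglycerol, was at 55.8 to 78.1 CPM in WT and 49.0 to 74.1 CPM in S155A mice.

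Of the genes for droplet coat proteins and for access of lipases to the droplet, 13 of 16 were tested and 0 passed, with a median of 0.017. Plin5 stood at a log2 fold change of 0.67 (standard error 0.24, edgeR unadjusted p = 0.0193, adjusted p = 0.993). The lowest gene was Bscl2, which encodes seipin of droplet formation, at -0.16 (standard error 0.11), and at -0.10 without WT replicate 3. The CPM ratio of Plin5 to Pnpla2 was 1.19 to 1.5 in WT and 1.31 to 2.29 in S155A mice, and that of Plin5 to Abhd5 was 8.43 to 11.5 and 9.06 to 22.5. Both ratios overlapped between genotypes, with S155A replicates 1 and 4 at the top of each.

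All 6 genes for PKA subunits were tested and 0 passed, with a median of -0.079. The catalytic subunit Prkaca was at 49.3 to 64.6 CPM in WT and 53.8 to 64.1 CPM in S155A mice, and its log2 fold change of 0.022 (standard error 0.12) was -0.021 with library size alone. Prkar2a, a regulatory subunit, had -0.13 (standard error 0.10), and -0.068 without S155A replicate 4. Prkar1b did not overlap between genotypes, at 0.395 to 0.905 CPM in WT and 0.0207 to 0.389 CPM in S155A mice, with a log2 fold change of -1.15 (standard error 0.64, edgeR unadjusted p = 0.103, exact permutation p = 0.0286). These values rest on 1 to 43 counts per mouse, and the difference was -0.15 among low and -2.5 among high animal numbers. Prkar1b was named after its values were seen and was the 1 gene of 56 without overlap, against 2.30% of all genes.

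Of 14 genes for transcription factors that act on the members, 14 were tested and 0 passed, with a median of 0.016. Foxo1, a factor that drives Pnpla2 in fasting, had 0.17 (standard error 0.24), with -0.14 in the low and 0.44 in the high series. It was 0.039 without S155A replicate 3 and 0.34 without WT replicate 2. Hif1a, a hypoxia-inducible factor, had -0.16 (standard error 0.15), and -0.0059 without WT replicate 1. Srebf1, whose product activates Pnpla3 in the fed state, was at 37.6 to 60.0 CPM in WT and 30.5 to 70.6 CPM in S155A mice. Its levels overlapped between the genotypes, as did those of Foxo1 and Hif1a.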

How the data were processed

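Poly(A) RNA of 8 fasted livers had been sequenced from stranded libraries (100 bp, paired ends). The table holds salmon's estimated counts summed by gene, which the authors deposited in length-scaled form: they allow for unequal transcript lengths among samples, but not for library size. The salmon version, annotation release and use of strand are not given in the sources used here, and overlapping genes on opposite strands may share reads. The submitters' processing notes name GRCm38, bcl2fastq, STAR, SAMtools, MultiQC and DESeq2. Columns were matched to mice by animal number, and 0 columns were left unmatched.

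Counts were rounded to whole numbers. Genes kept by filterByExpr (14629 of 45706) were compared in R 4.3.3 with edgeR 4.0.16 and its quasi-likelihood test (TMM, no block, Benjamini-Hochberg adjustment over all genes tested, threshold 0.05). Standard errors came from the F statistic and 95% intervals from the moderated degrees of freedom. Log2 CPM used a prior count of 2. For single genes, log2 CPM was also permuted exactly between genotypes (two-sided), for which 4 against 4 mice allow no p below 0.0286. Gene coordinates are from GENCODE release M21 (GRCm38), and lengths are merged exons. Poisson intervals cover counting error only. No 2 libraries were copies: the chi-square per gene was at least 40.4 between any pair, and about 1 is due to sampling. The closest pair was S155A replicates 2 and 3, animal numbers 830 and 831, and the farthest S155A replicates 1 and 3, at 173. How the mice were related is not stated. Simulated counts with known changes served to check the scripts.

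The alternatives were DESeq2 1.42.0, limma-voom (limma 3.58.1), DESeq2 size factors or library size alone in edgeR, 2 other filters on low counts, a replicate block, the animal number series as covariate and each mouse left out in turn. The 7 genes and all lists were chosen with earlier results of these data known. Besides the members, genes are named by a rule: Plin5, in each pathway list the genes at an unadjusted p under 0.05 or else the gene with the largest change in each direction with a mean of at least 1 CPM, the 2 genes most like each member, and cell markers that stand beside a result. Lipa, Abhd6, Srebf1 and Prkar1b were added after their values were seen. A gene found by the search for likeness is not reported here. No protein sequences were used here.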

Additional observations from a re-analysis of the deposited data

Results flagged for a closer look

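In 30 groups of 4 mice, a value lying well away from the others was sought, and 1 was found, where chance gives about 1.5. It was Plin5 in WT replicate 1, with 254 CPM, while the 3 remaining WT mice had 183 to 194 CPM. The log2 fold change of Plin5 was 0.79 without this mouse and 0.67 with it.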

How the results depend on the processing

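In all 17 alternatives 0 of the 7 genes and 0 of the 56 other pathway genes passed an adjusted p of 0.05, and 0 of the 7 had an unadjusted p under 0.05. DESeq2 called 6 genes of the whole table, and every other alternative called 0, with 357 (without WT replicate 3) to 894 genes (without S155A replicate 1) at an unadjusted p under 0.05, against 497 as reported and 851 with no filter beyond 1 count. Pnpla2, G0s2, Lipe and Mgll kept their direction in all 17 alternatives. With 1 mouse left out in turn, their log2 fold changes ran from 0.081 to 0.23 for Pnpla2, from 0.063 to 0.41 for G0s2, from 0.080 to 0.17 for Lipe and from -0.40 to -0.065 for Mgll. The direction of 3 genes rested on 1 mouse. Abhd5 ran from -0.047 (without WT replicate 4) to 0.12, Hilpda from -0.19 (without S155A replicate 1) to 0.34, and Pnpla3 from -0.82 to 0.098 (without WT replicate 2). With WT replicate 2 and S155A replicate 3 both left out, chosen after seeing the data, Pnpla3 was at 0.13, and the other 6 genes kept their direction. Pnpla3 was not tested under the filter of at least 1 CPM in 4 libraries. The catalytic subunit gene Prkaca turned to -0.021 with library size alone, -0.031 without WT replicate 1, -0.032 without WT replicate 4 and -0.033 without S155A replicate 2, and was highest at 0.097 without WT replicate 3. The replicate numbers were not taken to pair the mice: the correlations of deviations from the genotype means were 0.0565, 0.166, -0.111 and 0.129 for numbers 1 to 4. WT replicates 1, 2 and 4 correlated best with the S155A mouse of the same number, and WT replicate 3 with S155A replicate 4. With the replicate block, 0 of the 7 and 0 of all genes passed, and 579 genes had an unadjusted p under 0.05. With 4 mice per genotype, differences inside the interval of each gene are not excluded.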
